A study of Homo sapiens with 2 samples.

Results

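The genes described here are 10 members of the HSP70 chaperone family, chosen by symbol from the 43424 symbols of the count files: HSPA1A, HSPA1B, HSPA1L, HSPA2, HSPA4, HSPA4L, HSPA6, HSPA8, HSPA9 and HSPA14. They were read in 2 libraries of Hep3B, an established line of human hepatocellular carcinoma that has no p53. The control library came from cells given the solvent dimethyl sulfoxide (DMSO), and the other from cells given GLE, a Glehnia littoralis (a coastal plant) extract. The cells are labelled wild type in both, and how much GLE the sequenced cells received, and for how long, is not given in the sources used here. With 1 library per group there is no replicate, so no test between conditions was possible, and variation between cultures cannot be told apart from an effect of the extract.

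HSP70 proteins are chaperones that bind exposed hydrophobic stretches of unfolded proteins and release them again in a cycle driven by ATP. J-domain proteins deliver the substrate and start ATP hydrolysis, and nucleotide exchange factors open the pocket so that the substrate leaves. HSPA1A, HSPA1B and HSPA6 are known as members induced by heat, proteotoxic agents and heavy metals through heat shock factor 1 (HSF1). HSPA8 (HSC70) is the member that cells make constantly in the cytosol, HSPA9 (mortalin) works in the mitochondrial matrix, HSPA4 and its relative HSPA4L (APG-2 and APG-1) are large HSP110-type relatives that act as exchange factors, and HSPA14 is known as a ribosome-associated member. HSPA1L and HSPA2 are known for high expression in the male germ line.

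HSF1 binds heat shock elements, inverted repeats of the letters GAA. The windows of 250 bases upstream of the start site are shown for the inducible members and, for comparison, for the constitutive HSPA8, because these genes differ in how far the libraries stood apart. For HSPA8 the start site of the promoter table lies inside the annotated gene span, downstream of its outermost 5′ end. Sequences are from RefSeq (GRCh38.p14) and read 5′ to 3′ toward the start site. Capitals mark every match to the element cores GAANNTTC and TTCNNGAA, each of which is its own reverse complement, so that both strands are covered.
HSPA1A upstream window, chr6:31815293-31815542, plus strand: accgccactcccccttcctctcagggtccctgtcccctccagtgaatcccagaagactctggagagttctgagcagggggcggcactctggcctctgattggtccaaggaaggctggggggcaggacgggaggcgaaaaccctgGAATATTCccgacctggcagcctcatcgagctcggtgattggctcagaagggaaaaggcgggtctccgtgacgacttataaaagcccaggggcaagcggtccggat
HSPA1B upstream window, chr6:31827488-31827737, plus strand: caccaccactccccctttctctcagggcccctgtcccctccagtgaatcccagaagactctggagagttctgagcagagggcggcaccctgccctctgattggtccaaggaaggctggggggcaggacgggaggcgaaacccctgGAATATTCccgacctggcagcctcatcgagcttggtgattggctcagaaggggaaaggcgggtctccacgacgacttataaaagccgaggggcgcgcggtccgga
HSPA6 upstream window, chr1:161524290-161524539, plus strand: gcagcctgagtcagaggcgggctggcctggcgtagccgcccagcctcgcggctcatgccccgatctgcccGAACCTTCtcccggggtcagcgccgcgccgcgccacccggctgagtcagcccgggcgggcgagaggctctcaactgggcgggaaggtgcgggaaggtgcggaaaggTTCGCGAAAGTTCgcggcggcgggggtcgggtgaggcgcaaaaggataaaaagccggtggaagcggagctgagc
HSPA8 upstream window, chr11:123062137-123062386, minus strand: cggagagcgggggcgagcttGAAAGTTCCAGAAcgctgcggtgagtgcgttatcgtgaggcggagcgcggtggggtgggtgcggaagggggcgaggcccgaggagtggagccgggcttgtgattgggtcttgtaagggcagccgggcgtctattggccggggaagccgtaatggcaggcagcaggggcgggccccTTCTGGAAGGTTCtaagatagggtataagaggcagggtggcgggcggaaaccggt

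The HSPA1A and HSPA1B windows were 93.6% identical over 251 aligned columns, with a single core match each, at -106 to -99 and -105 to -98 when the start site is counted as 0. HSPA6 had core matches at -180 to -173 and, as an unbroken run of 3 GAA units in alternating orientation, at -74 to -62. That longer run, searched on both strands as GAANNTTC followed by NNGAA, overlaps the core matches within it. HSPA8 had the longer run at 2 places, -230 to -218 and -55 to -43. Over the 35116 promoter windows in the table, which span 250 bases before and 50 after a start, 13.5% held either core and 0.49% the longer run. Promoters were found for 9 of the 10 members, of which 7 held a core in at least 1 window and 2, HSPA6 and HSPA8, the longer run. HSPA2 and HSPA4 held neither core. The window of HSPA1L, which lies beside HSPA1A on the opposite strand, overlaps that of HSPA1A and holds the same core. A match is a description of letters and does not show binding.

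The control library held 5618328 counts and the GLE library 3636351, and CPM below stands for a gene's counts per 1000000 of the effective library size. The floor of detection, 3 counts, was worth 0.519 CPM for the control and 0.848 CPM for the GLE library. All 12 hepatoma markers, among them ALB, AFP and KRT18, had counts in both libraries, and 2 of them, APOB and FGB, were 2-fold lower or more with GLE. Summed markers of fibroblasts and stellate cells (6 genes) stood at 4.67 and 20.4 CPM in the control and GLE libraries, those of endothelium (5 genes) at 6.23 and 0.283, and those of immune cells (7 genes) at 496 and 466, most of it LYZ. CD3E and MS4A1 as well as VWF, CDH5, KDR and TEK had 0 counts in both. Mitochondrial ribosomal RNA took 8.52% of control and 13.2% of GLE counts. The part of these differences in the results below was not tested.

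The inducible members were higher in the GLE library than in the control, and the constitutive members lay close to 1 or moderately above it. Summed over HSPA1A, HSPA1B and HSPA6, 423 control counts and 1281 GLE counts were read, 73.2 and 362 CPM, a ratio of 4.95 (95% counting interval 4.43 to 5.54). Summed over HSPA8, HSPA9, HSPA4 and HSPA14, there were 3084 and 2319 counts, 534 and 656 CPM, a ratio of 1.23 (1.16 to 1.30). Without HSPA8 that constitutive ratio was 1.09 (1.02 to 1.16). Over all 7 members outside the inducible ones, with HSPA4L, HSPA1L and HSPA2 added, the ratio was 1.28 (1.22 to 1.35). The number of inducible reads per constitutive read was 0.137 in the control against 0.552 with GLE, 4.03 times as many (3.56 to 4.56), a value that does not depend on how the libraries are scaled. In bulk RNA, more RNA in every cell and more cells with a high level cannot be told apart.

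**Figure D1:**
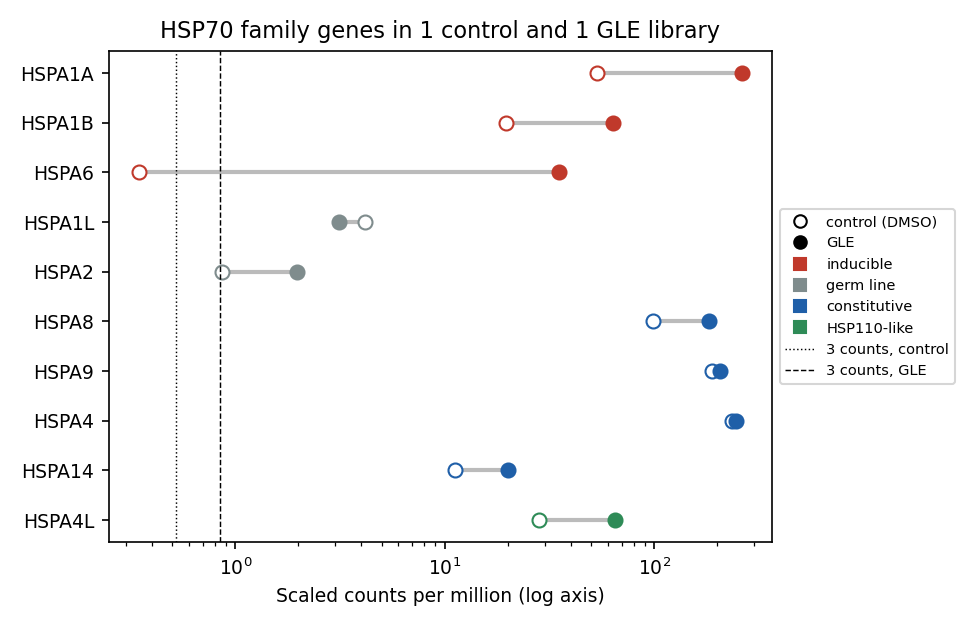
CPM (horizontal, log axis) of the 10 genes in the control library (open circles) and the GLE library (filled circles), coloured by role, with the level of 3 counts in each library as dotted and dashed lines. HSPA6 moves from below the 3-count level to 35.1 CPM, HSPA1A from 53.3 to 263 CPM, and the circles of HSPA9 and HSPA4 nearly coincide.

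HSPA1A and HSPA1B encode nearly the same stress-induced chaperone from neighbouring genes of the major histocompatibility region on chromosome 6 (31815543 to 31817942 and 31827738 to 31830254, GRCh38.p14), each with a single exon. HSPA1A had 308 control and 931 GLE counts, 53.3 and 263 CPM, a ratio of 4.94 (4.34 to 5.64). HSPA1B had 113 and 226 counts, 19.6 and 63.9 CPM, a ratio of 3.27 (2.60 to 4.13). Both genes were higher in the GLE library, HSPA1A by more. HSPA1A took 73.2% of the pair's reads in the control (exact Clopper-Pearson 95% interval 68.7 to 77.3) and 80.5% in the GLE library (78.1 to 82.7).

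The division of reads within this pair is uncertain. Their coding sequences are identical at 1919 of 1923 positions (99.8%), and 72.6% of all 50-base windows of the HSPA1A transcript also occur in the transcript of HSPA1B or another gene. The 3′ ends, which the library kit reads, are less alike. In the last 500 bases, 22.2% of HSPA1A windows and 1.11% of HSPA1B windows occurred in another gene. AL671762.1, a GENCODE 29 gene that overlaps HSPA1B on the same strand, shared 33.8% of the HSPA1A and 35.3% of the HSPA1B windows. In the last 500 bases it shared 9.98% of the HSPA1A and 0% of the HSPA1B windows. Reads assigned to AL671762.1 or dropped as ambiguous cannot be told from these counts. Summed, which removes the question of how reads were split between HSPA1A and HSPA1B but not that of reads lost to a further gene, the pair had 421 and 1157 counts and a ratio of 4.49 (4.01 to 5.03). Of 8384 genes with at least 100 counts, 67 (0.799%) had a log2 ratio as high as that of the pair or higher.

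**Figure D2:**
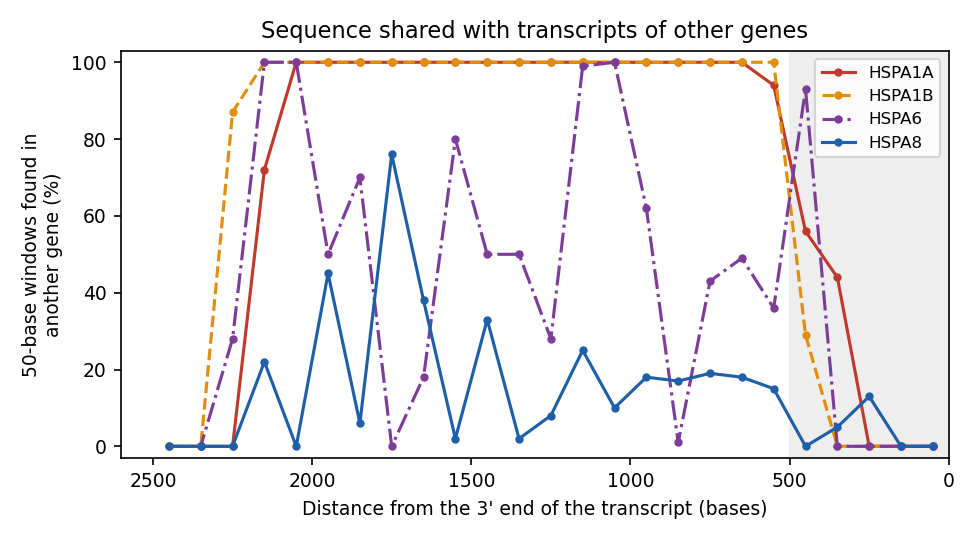
Share of 50-base windows that occur in a transcript of another gene (vertical, percent, in bins of 100 bases) against the distance from the 3′ end of the transcript (horizontal, bases), with the last 500 bases shaded. HSPA1A and HSPA1B share every window over most of their length, and the share is 0 in the last 300 bases of HSPA1A and the last 400 of HSPA1B.

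HSPA6 (HSP70B′), a strictly stress-induced member with 1 exon on chromosome 1 (161524540 to 161526894), was almost unread in the control. It had 2 control and 124 GLE counts, 0.346 and 35.1 CPM, and a ratio of 101 with a wide counting interval of 27.5 to 846. The width of that interval comes from the 2 control reads, and the ratio was 65.6 when the control was thinned to the GLE total. Relative to the HSPA1A and HSPA1B pair, its reads were 22.6 times as frequent in the GLE library (6.06 to 189). By log2 ratio it stood at rank 8 of the 11068 genes with at least 30 counts over both libraries, a minimum it passed through its GLE reads alone. HSPA7, a transcribed pseudogene that is a near copy of HSPA6, had 0 control and 10 GLE counts, at least 5.45-fold higher against the floor of 3 control counts. HSPA6 shared 45.5% of its 50-base windows with HSPA7 and 15.7% of those in its last 500 bases. In turn, HSPA7 shared 56.3% of its windows with HSPA6 and 49.0% of those in its last 500 bases. How reads were split between HSPA6 and HSPA7 is therefore uncertain. The sum of both genes was 2 and 134 counts.

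HSPA8 and HSPA14 had higher ratios than HSPA9 and HSPA4, and the order of HSPA8 and HSPA14 was not resolved. HSPA8, on chromosome 11 (123057489 to 123062462) and with 9 exons, had 572 control and 645 GLE counts, 99.0 and 182 CPM, a ratio of 1.84 (1.64 to 2.07). It stood at percentile 88.4 of all measured genes by log2 ratio. HSPA9 had 1091 and 730 counts, 189 and 206 CPM, a ratio of 1.09 (0.994 to 1.20). HSPA4 had 1356 and 873 counts, 235 and 247 CPM, a ratio of 1.05 (0.965 to 1.15), and its ratio was 0.995 when scaled by total counts. For these genes, on chromosome 5 at 138553756 to 138575401 and 133052013 to 133106449, no difference was detectable beyond counting error. Their counting intervals reached up to 1.20 and 1.15, and these bounds do not cover variation between cultures or the choice of scaling. HSPA8 reads per HSPA9 or HSPA4 read were 1.72 times as many in the GLE library (1.51 to 1.96).

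HSPA8 has many processed pseudogenes, and 15.4% of its 50-base windows occurred in another gene, but only 3.99% of those in its last 500 bases. HSPA14, on chromosome 10 (14838306 to 14871741), had 65 and 71 counts, 11.2 and 20.1 CPM, a ratio of 1.78 (1.26 to 2.54), an interval that holds the ratio of HSPA8. With the control thinned to the GLE total, HSPA14 stood at 1.88 and HSPA8 at 1.74. CDNF, which overlaps HSPA14 on the opposite strand, had 0 counts in both libraries.

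HSPA4L and HSPA4 are paralogs whose coding sequences were 66.9% identical, and they did not share a ratio. HSPA4L, on chromosome 4 (127781796 to 127840733), was read 163 times in the control and 230 times with GLE, 28.2 and 65.0 CPM, a ratio of 2.31 (1.88 to 2.84). Its reads per HSPA4 read were 0.120 in the control against 0.263 with GLE, 2.19 times as many (1.75 to 2.74). An antisense gene overlaps the whole last 500 bases of the longest HSPA4L transcript, and with the strand setting of the counting not given, reads from it cannot be told apart.

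The germ-line members were barely read. HSPA1L, on chromosome 6 (31809619 to 31815283), had 24 and 11 counts, 4.15 and 3.11 CPM, a ratio of 0.749 (0.331 to 1.59). HSPA2, on chromosome 14 (64535905 to 64543237), had 5 and 7 counts, 0.865 and 1.98 CPM, a ratio of 2.29 (0.625 to 9.14). Neither difference was detectable at this depth. HSPA1L starts beside HSPA1A and reads away from it, and its ratio stood below that of HSPA1A by an amount beyond the counting intervals of both.

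**Figure D3:**
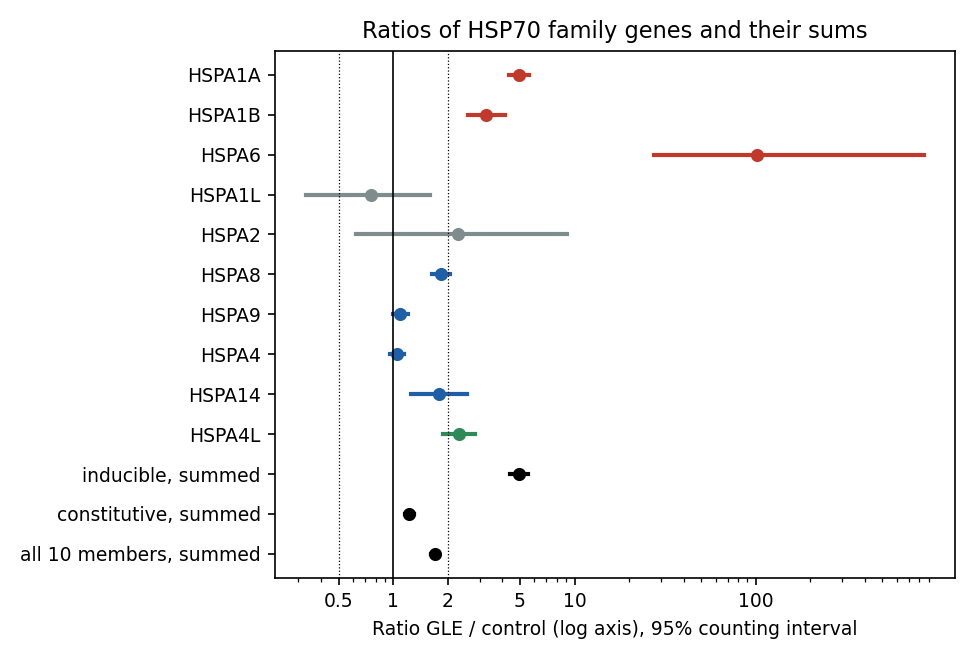
Ratio of GLE over control (horizontal, log axis) with its 95% counting interval for each gene and for 3 sums, with dotted lines at 0.5 and 2. The intervals of HSPA1A, HSPA1B and HSPA6 lie wholly above 2, that of HSPA4L starts at 1.88, and those of HSPA9, HSPA4, HSPA1L and HSPA2 include 1.

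Of the 10 members, 9 reached 30 counts over both libraries, HSPA2 being the exception. Among these 9, the log2 ratio was at least 1 (2-fold higher) for 4, namely HSPA6, HSPA1A, HSPA1B and HSPA4L, and 0 were at least 2-fold lower. Of all 11068 measured genes, 9.51% had a ratio of 2 or more and 10.1% a ratio of 0.5 or less. The counting interval lay above 1 for 6 of the 9 and below 1 for 0, against 27.7% and 30.1% of all measured genes. The whole interval lay above 2-fold for 3, the inducible members, against 3.82% of all measured genes, and wholly below 0.5 for 0, against 2.86%. The median log2 ratio was 0.88 over the 9 measured members, beside -0.04 over all measured genes. With no minimum count it was 1.02 over all 10 members, beside 0.71 over all genes. That 0.71 is also the log2 ratio that a gene with 0 counts in both libraries takes from the count added before the logarithm. HSPA6 counts among the 9 only through its GLE reads, and HSPA1A, HSPA1B and HSPA6 are related copies, so these counts describe the family and are not independent observations.

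**Figure D4:**
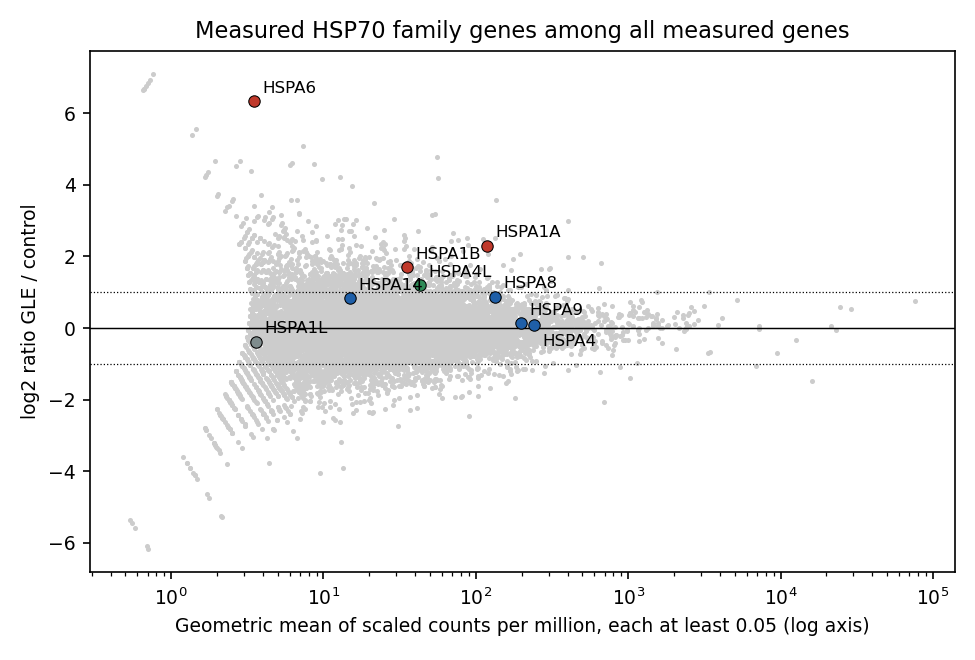
Log2 ratio of GLE over control (vertical) against the geometric mean of CPM (horizontal, log axis) for the 11068 measured genes (grey), with the 9 measured family members in the colours of their roles and dotted lines at 2-fold. HSPA6 lies near the top of the plot at a low mean, HSPA1A stands above the body of genes at its mean, and HSPA9 and HSPA4 lie near 0.

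The make-up of the family's reads differed between the libraries. All 10 genes together had 3699 control and 3848 GLE counts, 640.2 and 1088 CPM, a ratio of 1.70 (1.62 to 1.78). Inducible members took 11.4% of the family's reads in the control (10.4 to 12.5) and 33.3% in the GLE library (31.8 to 34.8). HSPA4 took 36.7% and 22.7%, HSPA9 29.5% and 19.0%, and HSPA8 15.5% and 16.8%. Divided by transcript length, HSPA1A stood at 21.5 CPM per kilobase in the control, below HSPA4 at 48.6, HSPA8 at 40.2 and HSPA9 at 39.9. In the GLE library, HSPA1A stood at 106 CPM per kilobase, above HSPA8 at 74.1, HSPA4 at 51.2 and HSPA9 at 43.7. Because the kit reads 3′ ends, these per-length values need not order the genes by molecules.

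Outside the cytosolic and mitochondrial members, HSPA5 (BiP), the HSP70 of the endoplasmic reticulum, had 3012 and 2694 counts and a ratio of 1.46 (1.39 to 1.54). HSPA13, a microsomal member, had 148 and 215 counts and a ratio of 2.37 (1.92 to 2.95). HYOU1, an exchange factor of the endoplasmic reticulum, had 308 and 223 counts and a ratio of 1.18 (0.991 to 1.41). HSPA12A had 1 count in each library and HSPA12B 0. HSPH1 (HSP105), the cytosolic HSP110 that exchanges nucleotide on HSP70, had 985 and 1896 counts and a ratio of 3.15 (2.91 to 3.40).

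Genes that work with HSP70, other HSP70 superfamily genes, heat shock factors and HSF1 targets were counted from 7 lists. These were chosen with earlier results of these data known. All listed genes are called partner genes below, although the superfamily genes, factors and targets need not be partners of HSP70. The lists hold 60 genes in all, with some genes in several lists, of which 51 were measured. Ratios of 2 or more were found for 14 of the 51 and of 0.5 or less for 0, beside 9.51% and 10.1% of all measured genes. The interval lay above 1 for 29 genes and below 1 for 9, beside 27.7% and 30.1% of all measured genes, and the median of the log2 ratios was 0.42. The count of 14 was 9 when the whole interval had to lie beyond 2-fold, beside 3.82% of all measured genes. The count was 10 when scaled by total counts, where HSP90AA1, DNAJC2, DNAJB2 and MRPL18 stood at 1.92, 1.99, 1.93 and 1.91. The share of all measured genes at that scaling is not given here. Cytosolic J-domain proteins had 4 of 10 measured genes at least 2-fold higher, beside 9.51% of all measured genes, and a median log2 ratio of 0.66. DNAJB1 and DNAJB4, stress-induced partners of HSP70, had 831 and 4042 counts and 62 and 202 counts, ratios of 7.95 (7.37 to 8.57) and 5.32 (3.99 to 7.20). DNAJC2, a ribosome-associated partner of HSPA14, had a ratio of 2.10 (1.97 to 2.24), and DNAJB2 of 2.05 (1.61 to 2.60). DNAJA1 stood at 1.70 and DNAJC5, the synaptic-vesicle type, at 0.661 (0.557 to 0.782).

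Cytosolic nucleotide exchange factors had 2 of 8 genes at least 2-fold higher, HSPH1 and BAG3, beside 9.51% of all measured genes, and a median log2 ratio of 0.11. BAG3, the stress-induced member of the BAG family, had 105 and 300 counts and a ratio of 4.67 (3.73 to 5.89). BAG4 stood at 1.77 (1.47 to 2.14), while BAG1 stood at 0.750 (0.607 to 0.923). Co-chaperones that hand clients from HSP70 to HSP90 or to degradation had 1 of 8 genes at least 2-fold higher, a share near the 9.51% of all measured genes, and a median log2 ratio of 0.29. That gene was HSP90AA1, the inducible HSP90, with 13817 and 17169 counts and a ratio of 2.03 (1.99 to 2.08). CHORDC1 stood at 1.90 (1.60 to 2.26), the HSP70-HSP90 adaptor STIP1 at 1.55 (1.38 to 1.74) and UNC45A at 1.34 (1.14 to 1.58). STUB1, the ubiquitin ligase CHIP that marks HSP70 clients, stood at 0.802 (0.644 to 0.993).

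Partners of mitochondrial HSP70 lay on both sides. Of 10 measured genes, 1 had a ratio of 2 or more and 0 of 0.5 or less, around a median log2 ratio of 0.14, so that the share at least 2-fold higher was near the 9.51% of all measured genes. GRPEL2, a nucleotide exchange factor of HSPA9, had 34 and 137 counts and a ratio of 6.58 (4.50 to 9.89), and TIMM44, which tethers HSPA9 to the import channel, had 639 and 721 counts and a ratio of 1.84 (1.66 to 2.05). ISCU, the iron-sulfur scaffold that HSPA9 serves, stood at 1.49 (1.23 to 1.82). HSPE1, the HSP10 partner of the chaperonin HSPD1, had 3492 and 1387 counts and a ratio of 0.649 (0.609 to 0.691). HSPA9 itself stood at 1.09.

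**Figure D5:**
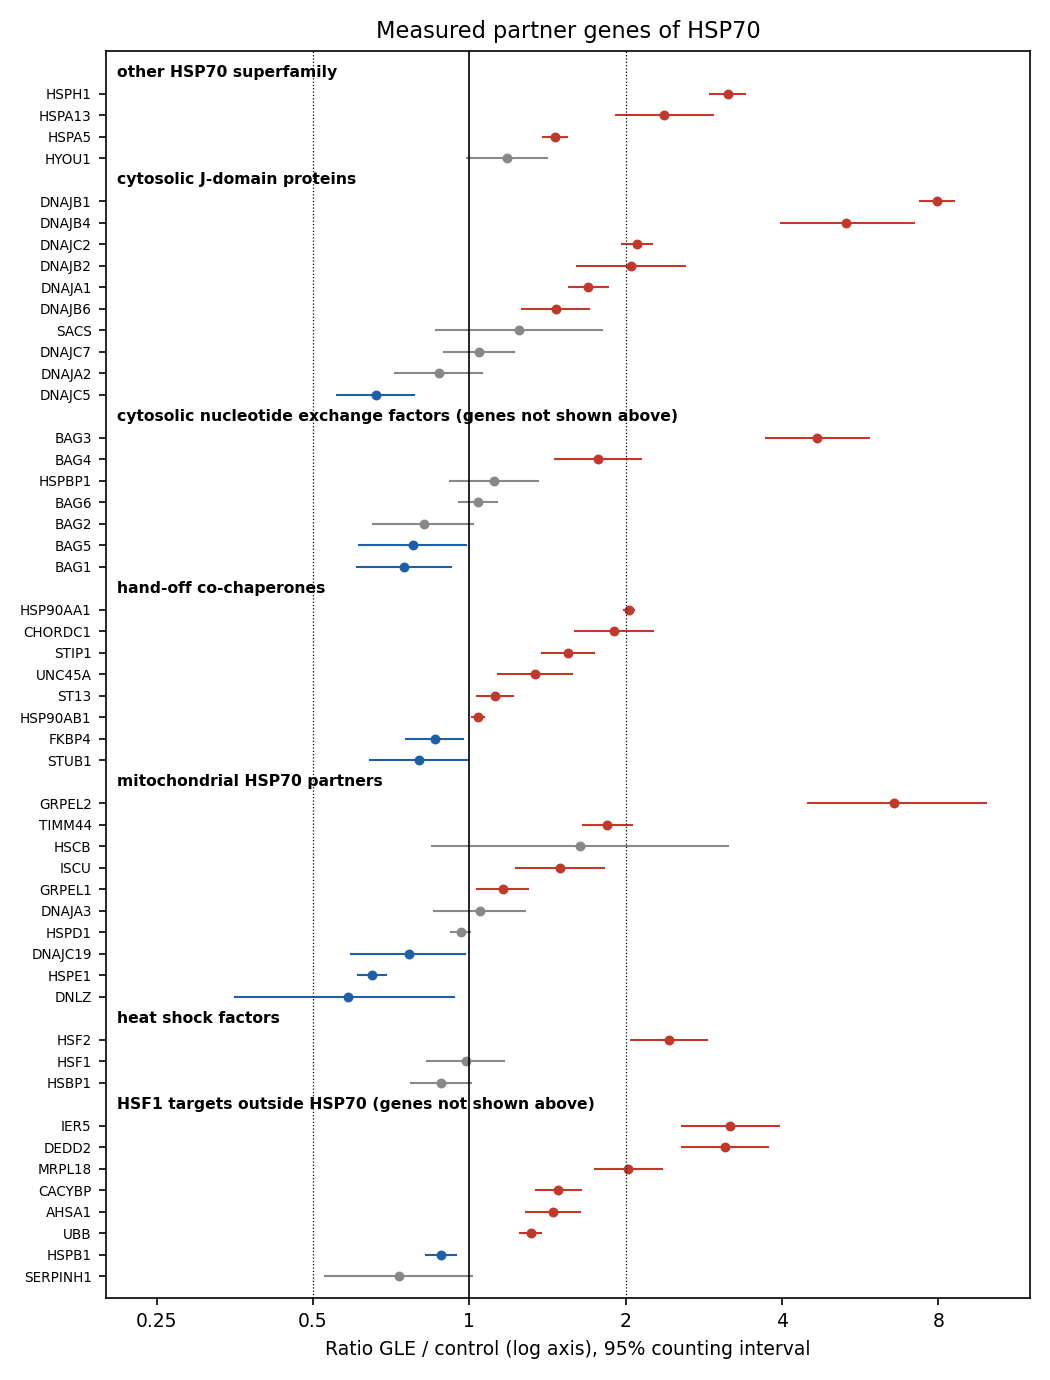
Ratio of GLE over control (horizontal, log axis) with its 95% counting interval for 50 of the 51 measured partner genes. They come from all lists, heat shock factors and HSF1 targets included, and are grouped by list, each gene drawn once. Red marks an interval above 1, blue an interval below 1 and grey an interval that includes 1. DNAJB1, GRPEL2, DNAJB4 and BAG3 lie furthest to the right, and HSPE1 and DNLZ lie to the left of 1.

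HSF1, the factor that drives HSP70 genes in stress and is regulated mainly at the protein level, had 360 and 217 counts, 62.3 and 61.4 CPM, a ratio of 0.985 (0.828 to 1.17). HSF2 had 238 and 353 counts, 41.2 and 99.8 CPM, a ratio of 2.42 (2.05 to 2.87). HSBP1, a binding protein of heat shock factors, stood at 0.883 (0.773 to 1.01). Of 21 measured HSF1 targets outside the family, 9 had a ratio of 2 or more and 0 of 0.5 or less, beside 9.51% and 10.1% of all measured genes. The interval lay above 1 for 16 of them and below 1 for 3, beside 27.7% and 30.1%, around a median log2 ratio of 0.76. The 3 below 1 were HSPE1 at 0.649 (0.609 to 0.691), FKBP4 at 0.858 (0.755 to 0.974) and HSPB1 at 0.883 (0.825 to 0.944). Besides DNAJB1, DNAJB4 and BAG3, the stress-responsive gene IER5 had 132 and 257 counts and a ratio of 3.18 (2.57 to 3.95). This list too was chosen with earlier results of these data known, and DNAJB1, DNAJB4 and BAG3 also count in lists above. Among the 3 partner genes nearest in log2 ratio to the HSPA1A and HSPA1B pair over the 2 libraries, of those with at least 100 counts, were BAG3 and DNAJB4, at differences of 0.05 and 0.24.

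The longer heat shock element run and the cores were set beside the ratio for all measured genes. Among measured genes with a promoter in the table, the longer run was present for 4 of the 809 with a ratio of 2 or more (0.494%). It was present for 32 of the 7271 in between (0.44%) and 3 of the 843 with a ratio of 0.5 or less (0.356%). Either core was present for 13.7%, 13.6% and 15.8% of these groups. Among partner genes either core was present for 5 of 13 that were at least 2-fold higher and for 9 of 29 others. The longer run was present for 1 of those 13, HSP90AA1, and for 6 of the 29 others. Those others were CHORDC1, DNAJA1 and DNAJB6, with ratios of 1.90, 1.70 and 1.47 whose intervals lay above 1, and HSP90AB1, HSPD1 and SERPINH1, with ratios of 1.04, 0.963 and 0.733. Within the family, the members with the longer run were HSPA6, with a ratio of 101, and HSPA8, with 2 runs and a ratio of 1.84, while HSPA1A with none had 4.94. No match in these windows says only that these letters are absent there.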

How the data were processed

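The deposited files hold unnormalized read counts by gene symbol, with a separate file for each library. The libraries were prepared with a Lexogen QuantSeq kit from 500 ng of total RNA, per the labels' protocols. The submitters' processing notes name fastp, STAR, HTSeq and the build GRCh38. Versions, the annotation and whether strand was used are not given in the sources used.

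Deposited counts were scaled to CPM by TMM effective library sizes (edgeR 4.0.16, R 4.3.3). The ratio of GLE over control carries a 95% interval, the exact Clopper-Pearson interval of a gene's GLE share turned into a ratio. Intervals and floors cover counting error only, since without molecular identifiers reads need not be independent molecules. Genes with at least 30 counts over both libraries are called measured, and 0.5 was added to counts before taking log2. Ratios between genes within a library carry an exact conditional interval. Windows of 50 bases were matched on both strands to GENCODE 29 transcripts (GRCh38). Positions and promoters are from RefSeq GRCh38.p14. Named genes were all members, other HSPA symbols, heat shock factors, up to 4 partners per list by the nearer interval bound, and the 3 partners nearest to HSPA1A and HSPA1B. A gene that this rule names is not reported here, and other genes named were chosen after their values were seen. Members and lists were chosen with earlier results of these data known. The scripts were tested on simulated data. Protein sequences were not used here. Python 3.11.15, SciPy 1.17.1, statsmodels 0.14.6, Biopython 1.88 and matplotlib 3.10.9 were used. DESeq2 1.42.0 size factors served as an alternative scaling.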

Additional observations from a re-analysis of the deposited data

How the results depend on the processing

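Ratios were recomputed with total counts, DESeq2 size factors, upper-quartile factors, centring on the median of well-read genes (100 counts or more), totals that leave out mitochondrial genes and the top 20 genes, the control thinned to the GLE total, and the trend with transcript GC content removed. The inducible sum ranged from 4.68 to 5.53 and the HSPA1A and HSPA1B sum from 4.25 to 5.03 over these 7 settings. HSPA6 ranged from 65.6 to 112, the 65.6 being with the thinned control. The constitutive sum was 1.16 when scaled by total counts and 1.09 when HSPA8 was left out. Other minimum counts, another count added before the logarithm and a criterion on the whole interval were tried on the counts of genes. The number of members at least 2-fold higher ranged from 3 to 5, being 3 on the whole interval, where HSPA4L drops out, and 5 with a minimum of 10 counts or none, where HSPA2 enters. The number at least 2-fold lower was 0 throughout. The number of partner genes at least 2-fold higher ranged from 9 to 17, the 9 being on the whole interval, where fewer genes can pass. The 17 came with no minimum count, and the genes that entered there had fewer than 30 counts and intervals that include 1. Of all measured genes, 9.51% were at least 2-fold higher at the main setting and 3.82% on the whole interval. Shares of all genes at the other settings are not given here. No replicate could be left out. No paired analysis was possible because each group has 1 library. Depth limits HSPA2, HSPA1L and the upper bound of HSPA6.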

Other observations

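Several pairs of related chaperone genes stood apart in the same library, a pattern noticed after the values were seen and not tested. HSP90AA1 reads per HSP90AB1 read were 0.974 in the control against 1.90 with GLE, 1.95 times as many (95% counting interval 1.88 to 2.02). GRPEL2 reads per read of GRPEL1, the other exchange factor of mitochondrial HSP70, were 0.0458 and 0.259, 5.67 times as many (3.80 to 8.65). HSF2 reads per HSF1 read were 0.661 and 1.63, 2.46 times as many (1.93 to 3.14). These ratios within a library do not depend on the scaling between libraries.

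HSPA1A reads per HSPA1B read were 2.73 in the control against 4.12 with GLE, 1.51 times as many (1.15 to 1.97). The division of reads between HSPA1A and HSPA1B is uncertain, and this interval does not cover that. HSPA9 reads per HSPA4 read, by comparison, were 0.805 and 0.836, 1.04 times as many (0.914 to 1.18).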
